A study of Rattus norvegicus with 4 samples.

Results

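Interferon-stimulated genes of NR8383 cells were described from the probes that carry the name, or an older rat name, of 39 listed genes. Of these, 38 had a probe on the array, through 48 of its 45598 probes, out of 18299 genes with a symbol. NR8383 is a macrophage line established from the lung lavage of a normal rat, and the labels give 20 passages. All 4 samples form 1 group, the submerged control, with replicates 1 to 4: cells covered by medium with 15% serum and 2 mM glutamine, with no added agent named. The design text gives 4 h submerged and the treatment protocol 48 h after seeding, and which applies was not settled. Total RNA was labelled with Cy3 and read on one-colour Agilent rat arrays of 60-base probes. With 1 group no comparison between conditions was made, and the design allows only which genes the cells express and how far replicates differ. The replicates are called biological in the design text, but whether they came from separate thaws or days is not given in the sources used here.

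Interferon-stimulated genes are those that cells switch on when interferon binds its receptor. After type I interferon, the receptor kinases JAK1 and TYK2 act on a complex that holds STAT2 and IRF9 and binds a DNA element called ISRE (interferon-stimulated response element), while interferon gamma acts through the GAS element (gamma-activated site). Many of the genes encode proteins that sense viral nucleic acid or block viral entry, translation or replication, and alveolar macrophages are a known source of type I interferon in respiratory infection. Some are also expressed at a low level without added interferon. The protein roles given below are known mainly from human and mouse.

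Promoter sequence was found by listed name for 28 of the 39 genes in the RefSeq table of build GRCr8. The windows run from 250 bases before to 50 after the annotated start. Adar, Ddx58, Dhx58, Ifit1, Ifit2, Ifitm1, Isg15, Mx2, Rtp4, Usp18 and Zbp1 had no entry under that name, and other names were not searched. Each window was searched on both strands for an ISRE core and for GAS. The ISRE core was GAAA, any 2 bases and GAAA again, or its reverse complement with TTTC in both places. GAS was TTC, any 3 bases and GAA, which reads the same on both strands. The ISRE core was found in 17 of the 28 windows (60.7%), against 3.92% of 33469 RefSeq windows of the same length. GAS letters were found in 8 of 28 (28.6%), against 8.87% of all windows. Both occurred in 4 of the windows (Oas1a, Bst2, Ifitm3 and Parp14) and neither in 7 (Stat2, Mx1, Oasl, Ifi35, Trim25, Parp9 and Cmpk2). A match is a description of the letters only.

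Of 20 ISRE core matches, 15 began within 100 bases before the start and 1, in Dtx3l, after it. Oas1a, Bst2 and Ifi27 had 2 matches each, and those of Oas1a and of Bst2 overlapped. In Bst2 the GAS match also overlapped an ISRE core. The 150 bases before the start are printed for 4 genes with the ISRE core that were detected on all arrays, 5′ to 3′ on the gene's strand, with the ISRE core in capitals. They lie at chr1:205800024-205800173 (minus strand, Irf7), chr12:41330316-41330465 (plus, Oas1a), chr16:18254968-18255117 (minus, Bst2) and chr6:128355162-128355311 (plus, Ifi27). The other Ifi27 match lies before the printed stretch.
Irf7: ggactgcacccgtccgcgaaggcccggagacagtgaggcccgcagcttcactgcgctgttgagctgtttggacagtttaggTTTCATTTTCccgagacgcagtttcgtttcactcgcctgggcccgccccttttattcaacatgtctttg
Oas1a: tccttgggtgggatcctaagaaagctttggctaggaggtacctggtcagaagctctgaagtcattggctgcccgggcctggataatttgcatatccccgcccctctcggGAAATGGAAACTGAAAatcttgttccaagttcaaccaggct
Bst2: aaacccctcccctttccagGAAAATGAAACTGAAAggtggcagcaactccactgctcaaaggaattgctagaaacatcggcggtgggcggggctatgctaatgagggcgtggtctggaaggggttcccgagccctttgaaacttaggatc
Ifi27: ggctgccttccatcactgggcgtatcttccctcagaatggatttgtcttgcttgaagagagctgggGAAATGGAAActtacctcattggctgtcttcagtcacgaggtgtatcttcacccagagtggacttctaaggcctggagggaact
The 4 genes with the ISRE core that were not detected on all arrays follow, at chr3:67683969-67684118 (minus, Ifih1), chr1:241527176-241527325 (plus, Ifit3), chr1:205541759-205541908 (minus, Ifitm3) and chr6:48788121-48788270 (minus, Rsad2).
Ifih1: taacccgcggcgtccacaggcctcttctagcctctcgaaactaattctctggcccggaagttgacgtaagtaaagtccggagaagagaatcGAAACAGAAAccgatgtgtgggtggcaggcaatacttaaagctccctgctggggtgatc
Ifit3: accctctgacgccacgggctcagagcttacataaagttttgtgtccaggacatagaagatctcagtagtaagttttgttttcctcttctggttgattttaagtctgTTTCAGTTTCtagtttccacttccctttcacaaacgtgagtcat
Ifitm3: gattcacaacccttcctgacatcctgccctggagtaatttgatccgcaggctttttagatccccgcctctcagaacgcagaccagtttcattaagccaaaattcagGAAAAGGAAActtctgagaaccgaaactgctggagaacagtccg
Rsad2: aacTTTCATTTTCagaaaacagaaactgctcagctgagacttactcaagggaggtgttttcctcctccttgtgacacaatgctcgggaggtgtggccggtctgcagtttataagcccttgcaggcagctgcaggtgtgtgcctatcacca
For contrast, the stretch of Mx1 at chr11:50294607-50294756 (minus strand) holds neither motif.
Mx1: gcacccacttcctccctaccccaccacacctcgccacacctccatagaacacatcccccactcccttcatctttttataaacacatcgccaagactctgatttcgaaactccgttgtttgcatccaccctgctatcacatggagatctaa

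**Figure D1:**
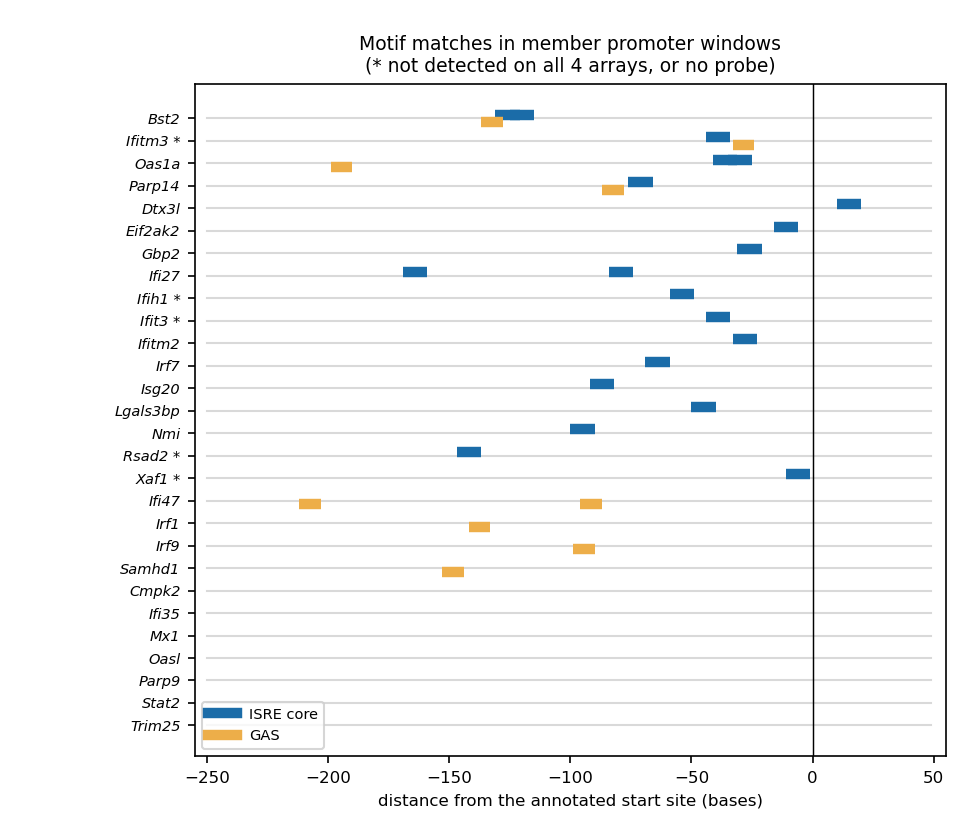
Distance from the annotated start site in bases (horizontal axis) of ISRE core (blue) and GAS (orange) matches in the 28 promoter windows (grey lines, 1 gene a line); a star marks a gene not detected on all 4 arrays or with no probe. Blue marks stand in 17 genes, 15 of the 20 within 100 bases before the start.

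Values are given as levels: the log2 processed signal of a probe relative to the 75th percentile of its array, so that 0 is that percentile. That percentile was 1317.3, 1489.4, 1179.4 and 958.2 fluorescence units on replicates 1 to 4, while negative-control spots had medians of 3.89, 4.38, 4.56 and 4.85 units. A gene was called detected on an array when a probe was well above background there. Levels of different probes are not comparable, so genes are not ranked. Of macrophage markers, 9 of 12 (75%) were detected on all arrays, against 55.4% of the 18299 named genes. Cd163 and Marco were detected on none, and Adgre1 on 1. Epithelial markers were detected on all arrays for 0 of 5 genes, with Sftpc on 1 array, fibroblast markers for 2 of 5 (Col1a2 and Dcn), and T and NK cell markers for 2 of 5 (Cd3d and Nkg7). Of plasmacytoid dendritic cell markers, Tcf4, Irf8 and Bst2, the last also an interferon-stimulated gene, were detected and Siglech and Ptcra had no probe. The other probe of Irf8 was well above background on 1 array.

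Most interferon-stimulated genes were detected in the line with no agent added. On all 4 arrays 32 of 38 (84.2%) were detected, against 55.4% of named genes (10137 of 18299). In such bulk RNA, fewer cells expressing a gene and less RNA per cell cannot be told apart. All 4 transcription factors, all 3 listed genes of ISG15 and ubiquitin ligation, both GTPases, all 3 of the PARP and DTX3L group and 5 of 5 other interferon-induced proteins were among them. Antiviral effectors followed with 10 of 13, membrane restriction factors with 3 of 4 and nucleic acid sensors with 2 of 4. Ifit1, Rsad2 and Ifitm3 were not well above background on any array. Ifit3 and Zbp1 were so on replicate 2 alone, and Ifih1 on replicates 1, 2 and 4. By the software's laxer flag, a signal positive and significantly above background, 37 of 38 were detected on all arrays, against 65.9% of named genes, with Ifit1 the exception. On replicates 1 to 4, 33, 35, 32 and 33 of the 38 were detected, against 60.6%, 60.3%, 57.8% and 57.0% of named genes. Of 532 named genes detected on 1 array alone, 186 (35.0%) were so on replicate 2.

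**Figure D2:**
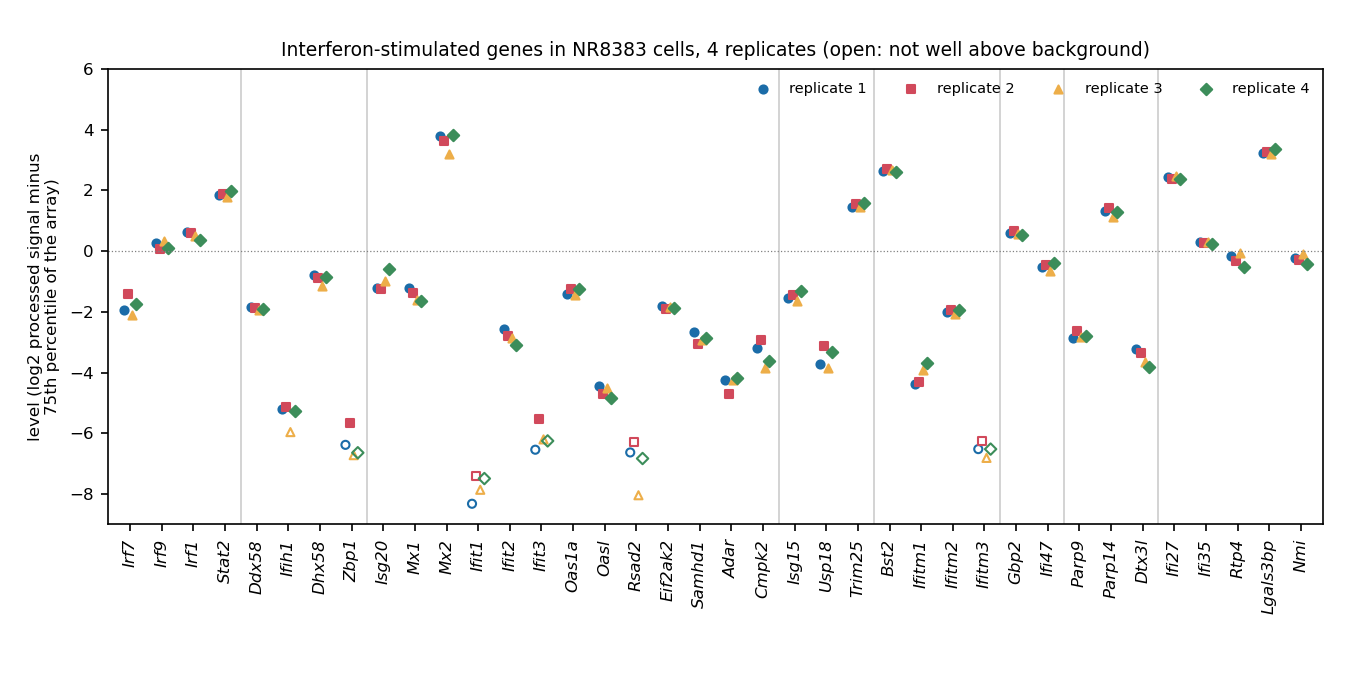
Level (log2 relative to the array's 75th percentile, vertical axis) of the 38 genes with a probe on replicates 1 to 4, grouped by role between grey lines; open symbols were not well above background. The values of a gene lie close together for most genes, and the open symbols belong to Ifit1, Ifit3, Rsad2, Ifih1, Ifitm3 and Zbp1.

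The transcription factors form the nuclear end of the pathway, and all 4 were detected. Stat2, a subunit of the complex that binds the ISRE, lay at 1.86, 1.87, 1.80 and 1.99 on replicates 1 to 4 (SD 0.08). Irf9, its DNA-binding subunit, lay at 0.27, 0.07, 0.32 and 0.10 (SD 0.12). Irf1, an early target of interferon gamma, lay at 0.62, 0.60, 0.51 and 0.36 (SD 0.12). These 3 factors had a spread near that of detected genes as a whole, whose median SD was 0.112. Irf7, the factor that amplifies interferon alpha production, differed more, at -1.95, -1.41, -2.09 and -1.73 (SD 0.30). Replicate 2 was highest for Irf7 and replicate 3 lowest, a range of 1.60-fold. The probes of Irf7, Irf9, Irf1 and Stat2 lie on rn4 at chr1:201456889-201456948 (minus strand), chr15:33745741-33745800 (plus), chr10:39227520-39227579 (plus) and chr7:1580592-1580651 (plus).

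Of the nucleic acid sensors, Ddx58 and Dhx58 were detected on all arrays. Ddx58 encodes the RNA sensor RIG-I and had levels of -1.83, -1.87, -1.93 and -1.92 (SD 0.05), among the narrower spreads. Dhx58, which encodes the regulator LGP2, had -0.79, -0.90, -1.14 and -0.84 (SD 0.15), with replicate 3 lowest. Ifih1, which encodes the long double-stranded RNA sensor MDA5, lay at -5.19, -5.13, -5.96 and -5.28. Its signal of 18.9 units on replicate 3 fell just short of the lowest well-above-background signal there, 19.1 units. Zbp1, a sensor of left-handed nucleic acid, lay at -6.38, -5.67, -6.72 and -6.64, with the value on replicate 2 alone well above background. Both genes passed the laxer flag on all 4 arrays.

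The antiviral effectors, with 13 genes, held both detected and undetected members. In rat, Mx1 is a nuclear and Mx2 a cytoplasmic member of the dynamin-like Mx GTPases. Mx2 lay at 3.79, 3.63, 3.19 and 3.82 (SD 0.29), with replicate 3 lowest, and Mx1 at -1.21, -1.39, -1.62 and -1.64 (SD 0.20). Oas1a, which makes the activator of the RNA-degrading enzyme RNase L, lay at -1.40, -1.24, -1.45 and -1.23 (SD 0.11). Its relative Oasl lay at -4.45, -4.72, -4.51 and -4.84 (SD 0.18). Eif2ak2 encodes the translation-blocking kinase PKR and held within a range of 1.08-fold, at -1.79, -1.90, -1.84 and -1.87 (SD 0.05).

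The IFIT proteins, which bind viral RNA, differed from each other in detection. Ifit2 was detected on all arrays at -2.58, -2.80, -2.86 and -3.10 (SD 0.21). Ifit3 lay at -6.54, -5.54, -6.20 and -6.25, well above background on replicate 2 only, with a signal of 32.0 units there. Ifit1 had signals of 4.12, 8.78, 5.06 and 5.34 units, against negative-control medians of 3.89 to 4.85 units. Each of the 3 genes had 1 probe, and the probes of Ifit1, Ifit2 and Ifit3 lie within chr1:238565078-238610142 of rn4. Their letters share no run longer than 6 bases, and among all pairs of probes set against each other in the Mx, Ifit, Ifitm, Oas and Gbp families the longest shared run was 10 bases (Oas1a and Oasl).

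Rsad2 encodes viperin, which makes a chain-terminating nucleotide, and its genomic neighbour Cmpk2 encodes the kinase that supplies its substrate. Cmpk2 was detected on all arrays at -3.19, -2.92, -3.86 and -3.63 (SD 0.42), the widest spread of the 32 detected genes. Neither probe of Rsad2 was well above background on any array, one lying at -6.63, -6.29, -8.04 and -6.83 and the other at -8.32, -8.29, -7.91 and -7.51. The annotated starts of the pair lie 14730 bases apart on chr6 of GRCr8 and on opposite strands. The stretch of Rsad2 printed above holds an ISRE core and the window of Cmpk2 holds none.

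Further effectors act on nucleic acids or nucleotides, and all were detected. Isg20, an exonuclease, lay at -1.22, -1.25, -0.98 and -0.59 (SD 0.31), highest on replicate 4. Samhd1, which hydrolyses deoxynucleotides, lay at -2.67, -3.05, -2.93 and -2.85 (SD 0.16). Adar, an adenosine deaminase that edits double-stranded RNA, lay at -4.26, -4.69, -4.23 and -4.17 (SD 0.24). Replicate 2 was lowest for both Samhd1 and Adar.

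The 3 listed genes of ISG15 and ubiquitin ligation were all detected. Isg15 itself, a ubiquitin-like modifier, lay at -1.54, -1.46, -1.63 and -1.32 (SD 0.13; probe at chr5:173034674-173034733 of rn4, minus strand). Usp18, which removes ISG15 from proteins and damps receptor signalling, lay at -3.73, -3.11, -3.85 and -3.31 (SD 0.35). Trim25, a ligase that acts on RIG-I, held close at 1.46, 1.54, 1.46 and 1.59 (SD 0.06). Usp18 and Irf7 were both highest on replicate 2 and lowest on replicate 3.

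Among membrane restriction factors, Bst2 (tetherin, which holds budding virus at the cell surface) lay at 2.65, 2.69, 2.66 and 2.60 (SD 0.04). Ifitm2, of the family that blocks viral entry, lay at -2.00, -1.95, -2.06 and -1.94 (SD 0.05). Ifitm1 lay at -4.36, -4.30, -3.93 and -3.69 (SD 0.31). Ifitm1 and Ifitm2 were each printed on 10 spots, which gives a measure of error within an array. For Ifitm1 the SD of the log2 signal over spots was 0.53, 0.42, 0.57 and 0.40 on replicates 1 to 4. The standard error of an array's mean over those spots was then 0.17, 0.13, 0.18 and 0.13, against an SD of 0.31 between the 4 array levels. For Ifitm2 the SD over spots was 0.11, 0.06, 0.09 and 0.13. Spots of Ifitm1 ranged from 33.2 to 109 units on replicate 3. Neither probe of Ifitm3 was well above background, with levels of -6.52, -6.26, -6.81 and -6.52 for one and -7.40, -7.76, -7.06 and -7.20 for the other. The starts of Ifitm2 and Ifitm3 lie 59410 bases apart on chr1 of GRCr8, and both windows hold an ISRE core.

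Both interferon-inducible GTPases were detected. Gbp2, a guanylate-binding protein that acts on pathogen vacuoles, lay at 0.61, 0.67, 0.55 and 0.52 (SD 0.07). Ifi47, of the immunity-related GTPases, lay at -0.51, -0.47, -0.66 and -0.38 (SD 0.12). The promoter window of Ifi47 had 2 GAS matches and no ISRE core, while that of Gbp2 had an ISRE core.

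Parp9, Dtx3l and Parp14 are neighbours on chr11 of GRCr8. Parp9 and the ubiquitin ligase Dtx3l, whose proteins form a complex, start 1214 bases apart on opposite strands, and Dtx3l and Parp14 start 87909 bases apart. Parp9 lay at -2.85, -2.62, -2.83 and -2.79 (SD 0.10). Dtx3l lay at -3.23, -3.34, -3.65 and -3.81 (SD 0.27). Parp14, an ADP-ribosyltransferase, lay at 1.31, 1.42, 1.12 and 1.28 (SD 0.13). The neighbours did not share a highest and lowest array: the highest array was replicate 2 for Parp9 and Parp14 and replicate 1 for Dtx3l, and the lowest was replicate 1, 3 and 4 for Parp9, Parp14 and Dtx3l.

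The other interferon-induced proteins with a probe were all detected, mostly with narrow spreads. Ifi27, a small membrane protein, lay at 2.45, 2.38, 2.49 and 2.39 (SD 0.05). Lgals3bp, a secreted galectin-binding glycoprotein, lay at 3.23, 3.25, 3.19 and 3.35 (SD 0.07). Ifi35 lay at 0.30, 0.26, 0.30 and 0.22 (SD 0.04). Its binding partner Nmi, a STAT-interacting protein, lay at -0.24, -0.29, -0.11 and -0.42 (SD 0.13), and the receptor chaperone Rtp4 at -0.17, -0.31, -0.05 and -0.53 (SD 0.21). Nmi and Rtp4 were both highest on replicate 3 and lowest on replicate 4. Xaf1, which binds the apoptosis inhibitor XIAP, had no probe under its name. A probe whose description names XIAP associated factor-1, at chr10:59193361-59193420 of rn4 (plus strand), lay at -5.64, -5.68, -5.26 and -6.07 and was detected on replicates 1 to 3. It is not counted among the 38.

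Of the 10 genes with 2 probes, both were detected for Irf9, Oas1a, Eif2ak2 and Trim25 and neither for Rsad2 and Ifitm3. For Mx2, Ddx58, Ifi47 and Dtx3l the probes disagreed, and those calls rest on 1 probe. The other Mx2 probe lay at -7.36, -7.71, -7.38 and -6.66 and the other Ddx58 probe at -7.35, -6.87, -6.47 and -6.65. The other Ifi47 probe lay at -7.41, -7.90, -8.06 and -7.46. None of these 3 probes was well above background on any array, while the other Dtx3l probe, at -6.02, -6.60, -5.58 and -6.50, was so on replicates 1 and 3. The remaining 28 genes had 1 probe. The first 30 bases of each disagreeing pair are printed, since the genes' calls turn on them. On rn4 the used and the other probe lie at chr11:37572657-37572716 and chr11:37575743-37575802 for Mx2 (plus strand), and at chr5:57598203-57598262 and chr5:57629480-57629539 for Ddx58 (minus). For Ifi47 they lie at chr10:34204236-34204295 and chr10:34206669-34206728 (plus), and for Dtx3l at chr11:66659060-66659119 and chr11:66653956-66654015 (plus). No exon annotation of rn4 was used here.
Mx2 probe used: atggatggtactgggctttgtatgtttagg
Mx2 other probe: attttccaacatggaaggaggaagcatccc
Ddx58 probe used: aaggtatttctgttctgttcatttactata
Ddx58 other probe: tgtgtcgcttctcatatgcgaacatcatct
Ifi47 probe used: gtgtctgaaccacgcatcttcctgatctcc
Ifi47 other probe: gagaaccaactccacaaaattgttctctga
Dtx3l probe used: tttcttcttttgcaaggcggaattatctgt
Dtx3l other probe: aaataaaacacccaaacgtgcacttcgtga

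**Figure D3:**
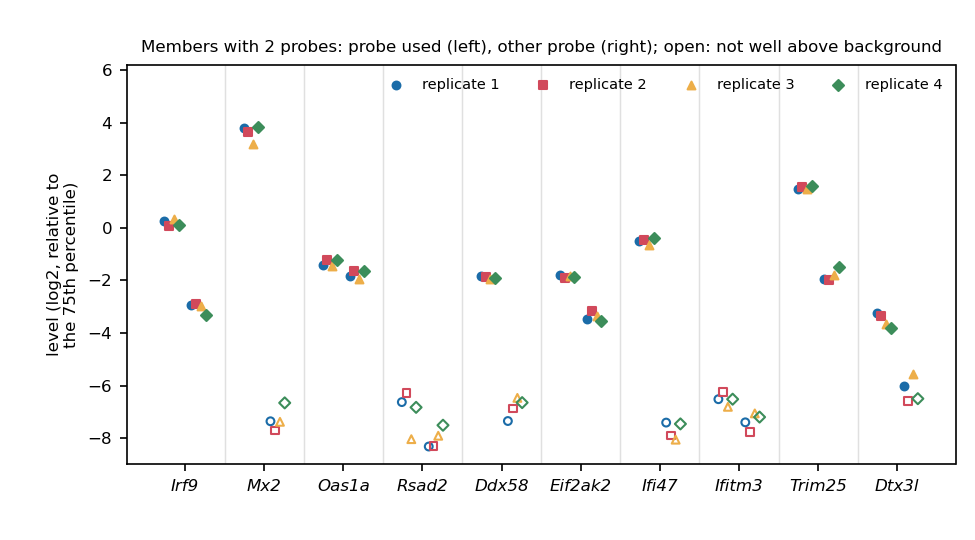
Levels (log2 relative to the array's 75th percentile, vertical axis) on replicates 1 to 4 of the 10 genes with 2 probes, the probe used at left and the other at right; open symbols were not well above background. For Mx2, Ddx58 and Ifi47 all 4 symbols of the other probe are open, and for Rsad2 and Ifitm3 those of both probes are.

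A few probes spanned more of the genome than their 60 bases, so that their match on rn4 is split by a gap. On rn4 the probes of Oas1a, Oasl, Ifi35 and Adar spanned 686, 842, 158 and 309 bases. They lie at chr12:36814289-36814974 (plus strand), chr12:42958314-42959155 (minus), chr10:90482877-90483034 (plus) and chr2:181952243-181952551 (plus), and are printed whole because the 60 bases cannot be read from the genome as 1 stretch.
Oas1a probe: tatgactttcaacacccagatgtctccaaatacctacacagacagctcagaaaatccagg
Oasl probe: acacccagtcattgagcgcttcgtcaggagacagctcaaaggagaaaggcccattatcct
Ifi35 probe: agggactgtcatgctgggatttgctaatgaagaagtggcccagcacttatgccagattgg
Adar probe: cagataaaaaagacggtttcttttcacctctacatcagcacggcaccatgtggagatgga

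The median spread of the 32 detected genes between replicates was near that of genes at large, and the difference was not tested. The median SD of the 32 was 0.128 (lowest 0.037, highest 0.423), against 0.112 for all detected genes. With normexp background correction the median SD of the 32 was 0.11, and without replicate 3 it was 0.10. The SD that limma's prior gives for probes of similar signal had a median of 0.118 for the 32 and 0.113 for all detected genes. Of the 32, 20 had an SD above 0.112, against 5068 of 10137 detected genes, since 0.112 is their median. With spike-in scaling, which leaves differences in signal between whole arrays in place for every gene, the median SD of the 32 was 0.52. The median SD of all detected genes on that scale was not computed. In limma's test of each probe's variance against probes of similar signal, 0 of 32 passed at an adjusted p of 0.05, against 0.148% of detected genes (15 of 10137). With no filter on dim probes 1 gene, Mx2, passed. At an unadjusted p below 0.05 in that test there were 4 of 32, a larger share than the 5.50% of all detected genes (558 of 10137). That number was 1 without replicate 3, 1 with a prior without the signal trend and 0 with spike-in scaling. These 4 were Mx2, Isg20, Cmpk2 and Irf7, whose ranges over the arrays were 1.55-fold, 1.59-fold, 1.91-fold and 1.60-fold. Their limma adjusted p was 0.38 for Mx2, 0.54 for Isg20, 0.70 for Cmpk2 and 0.71 for Irf7. With 4 arrays the test had little power except for very large differences in spread. Missing the threshold therefore does not show that these genes were the same in all replicates.

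**Figure D4:**
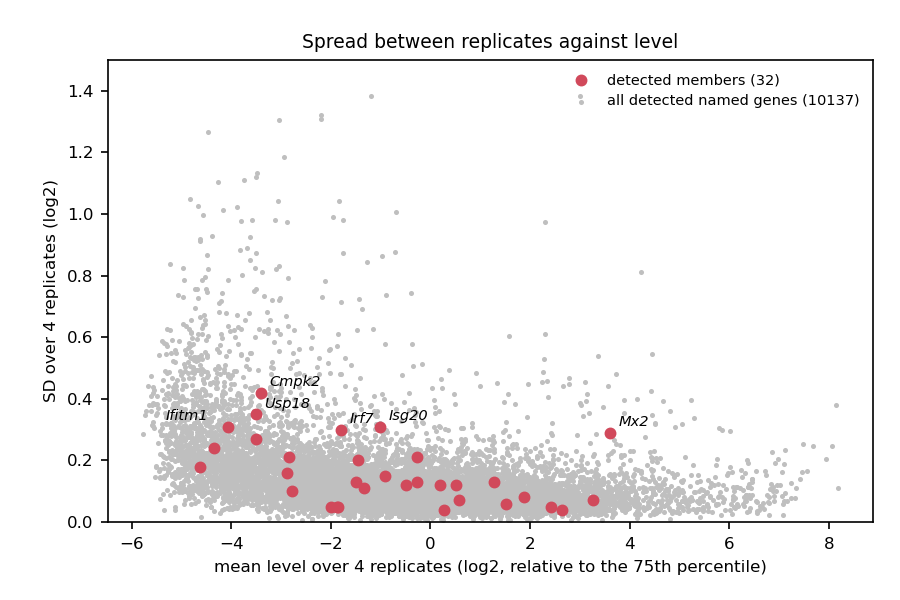
SD over the 4 replicates (log2, vertical axis) against mean level (log2 relative to the 75th percentile, horizontal axis) for the 32 detected interferon-stimulated genes (red) and all 10137 detected named genes (grey). The red points lie within the grey cloud, between 0.037 and 0.423.

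On the scale of each array's 75th percentile, the mean of the genes was lowest on replicate 3, but relative to the spike-in probes it was lowest on replicate 4. The mean level of the 32 was -0.86, -0.86, -0.96 and -0.89 on replicates 1 to 4, a range of 0.10, against -0.77, -0.76, -0.78 and -0.73 for all detected genes, a range of 0.04. Relative to the spike-in probes the mean of the 32 was -3.68, -3.70, -4.37 and -4.69 on replicates 1 to 4, a range of 1.02. That scale subtracts the spike-in level of the array, 2.82, 2.84, 3.42 and 3.81, from every gene alike. The range of 1.02 is therefore not particular to these genes. The shares that follow are for the 75th percentile scale. Replicate 3 held the lowest value of 14 genes (43.8%), against 27.7% of all detected genes, and the highest value of 4 (12.5%), against 22.7%. Replicate 1 held the lowest value of 2 genes (6.25%), against 23.8%, and the highest of 10 (31.2%), against 19.8%. On replicates 2 and 4 the shares lay nearer those of all genes. Replicate 2 held the highest value of 7 genes (21.9%), against 25.5%, and the lowest of 6 (18.8%), against 20.0%. Replicate 4 held the highest value of 11 (34.4%), against 31.9%, and the lowest of 10 (31.2%), against 28.5%. These shares are descriptions, with no test.

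Genes of different roles had the same highest and lowest arrays, often by small differences. Highest on replicate 4 and lowest on replicate 3 were 8 genes (25.0%, against 11.1% of detected genes): Stat2, Isg15, Mx2, Oas1a, Ifi47, Ifitm2, Trim25 and Lgals3bp. Another 6 were highest on replicate 1 and lowest on replicate 4 (18.8%, against 9.74%), namely Irf1, Mx1, Ifit2, Oasl, Ifi35 and Dtx3l. Irf7, Usp18, Parp14 and Cmpk2 were highest on replicate 2 and lowest on replicate 3 (12.5%, against 10.0%). Each of the other pairs of highest and lowest array held 0 to 2 genes, against 3.43% to 11.9% of detected genes. Mx1 and Mx2 had different highest and lowest arrays. Between pairs of replicates, the SD of log2 differences of the 32 genes was smallest at 0.22, for replicates 1 and 2 and for 1 and 3, and largest at 0.31 for 2 and 3. For all detected genes those 3 pairs gave 0.19, 0.26 and 0.28.

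**Figure D5:**
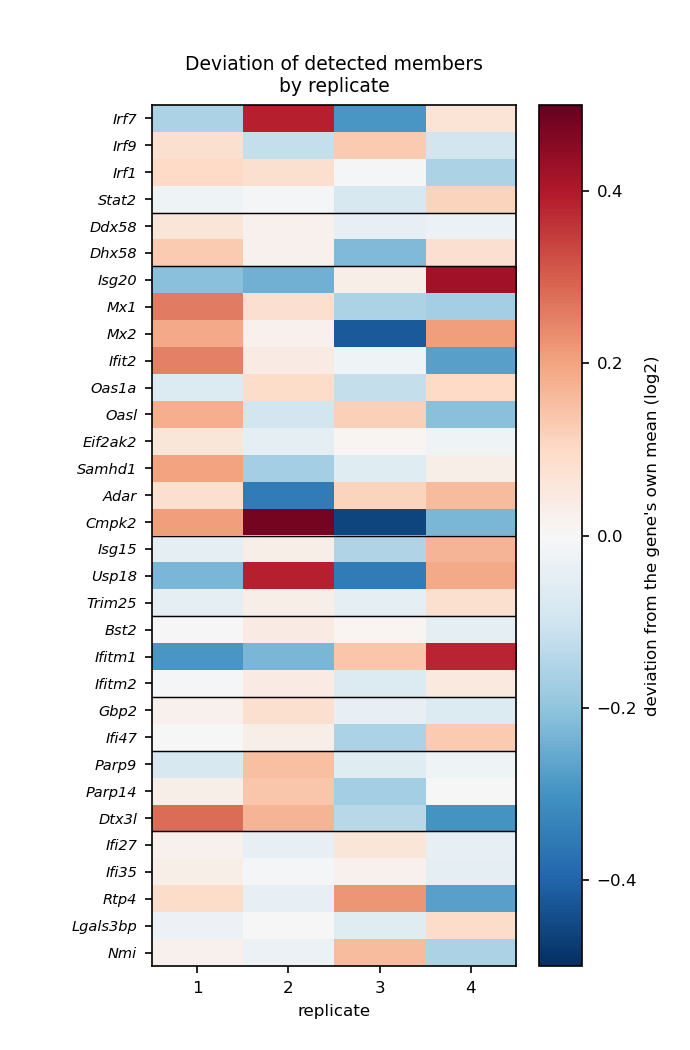
Deviation of each of the 32 detected genes from its own mean (log2, colour, red above and blue below) on replicates 1 to 4 (columns), by role between black lines. Cmpk2, Irf7 and Usp18 are red on replicate 2 and blue on replicate 3, and Mx2 is blue on replicate 3.

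The ISRE core letters and detection are set side by side here, with no test. Of 16 genes with the core and a probe, 12 were detected on all arrays, and of 11 without it 11 were. Among all named genes with the core in the window, 275 of 538 (51.1%) were detected, against 55.4% of all named genes. The latter share includes genes with no window, and the share among genes with a window was not computed. The core was also found in 15 of 22 windows of other interferon-stimulated genes (68.2%), in 5 of 24 of pathway genes (20.8%) and in 2 of 24 of cell type markers (8.33%).

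Upstream of these, 25 of 31 genes of the interferon pathway with a probe (80.6%) were detected on all arrays, against 55.4% of named genes. Ligands were the exception, with 2 of 6. Ifna1, Ifna2, Ifnb1 and Ifng were not well above background on any array. Ifna4 lay at -4.28 ± 0.31 (SD, n = 4). Its probe is placed on chr3_random of rn4, while those of Ifna1, Ifna2 and Ifnb1 lie on chr5. Ifnk was detected by 1 of its 2 probes, and that probe has no rn4 position. The other Ifnk probe, placed on chr5, was not well above background on any array. Both detection calls thus rest on 1 probe of uncertain place. The accession of the Ifna1 probes is now named Ifna5 in RefSeq. Receptor subunits were detected except Ifnlr1, the interferon lambda subunit. Those of the type I receptor, Ifnar1 and Ifnar2, lay at -1.65 ± 0.11 and -0.50 ± 0.07, and those of the interferon gamma receptor, Ifngr1 and Ifngr2, at 2.37 ± 0.09 and 0.71 ± 0.04. Il10rb, shared by interferon lambda and interleukin 10 receptors, lay at 0.49 ± 0.12.

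The receptor kinases Jak1, Jak2 and Tyk2 were all detected. The brightest probes of Jak1, Jak2 and Tyk2 lay at 3.20 ± 0.14, -1.32 ± 0.21 and -1.32 ± 0.14. Irf2, Irf3, Irf5 and Irf8 were detected, as were all 7 adaptors and kinases. Among these, Mavs lay at 0.15 ± 0.03, Tmem173 (STING) at -2.56 ± 0.14 and Mb21d1 (cGAS) at -3.61 ± 0.23. The other probe of Irf2 was well above background on 0 arrays, that of Irf8 on 1 and that of Tmem173 on 2. With every probe of a gene required, the pathway count was 19. Of the negative regulators, Socs1 was not well above background, while Socs3 lay at -2.85 ± 0.22 and Pias1 at -3.90 ± 0.15.

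Other interferon-stimulated genes, outside the 39, were detected on all arrays in 16 of 23 cases (69.6%), against 55.4% of named genes. They were 8 of 13 type I targets (61.5%, near that share) and 8 of 10 interferon gamma targets (80%). Not detected on all arrays were Oas2, Ddx60, Ly6e, Tnfsf10, Znfx1, Gbp4 and Ciita. In the Oas family, Oas1b lay at 3.87 ± 0.09 and Oas3 at -4.29 ± 0.20, while Oas2 was well above background on 3 arrays. In the Gbp family, Gbp1 lay at -3.80 ± 0.54 and Gbp5 at -2.80 ± 0.15, while Gbp4 was well above background on 1 array by 1 of its 2 probes.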

How the data were processed

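Intensity values per spot were deposited: the processed signal, which Agilent Feature Extraction 11.0.1.1 had corrected for background but not scaled across arrays, per the file headers; the submitters' processing notes name the same version. Each array held 62976 spots, 58717 of them no controls, on 1 slide with 1 scan day, and 0 were saturated, so no batch could be examined. From the deposited intensity, log2 levels were computed relative to each array's percentile 75 of non-control spots. Spots that the software had flagged non-uniform or population outliers were left out, and replicate spots were averaged. Detection of a probe needed more than 0.5 of the spots kept to be well above background, and a gene was detected where 1 probe was detected on 4 arrays. Its brightest detected probe was used. The number of arrays limits the precision.

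Probes were named by unversioned accession (21109), symbol (6684) or older symbol (424) through a RefSeq table of GRCr8, and 17381 were not. Named genes leave out LOC and RGD names. Probe coordinates are on rn4, per the file headers. For the variance test, limma 3.58.1 was run in R 4.3.3: for probes detected on every array, residual variance was compared with a robust, signal-dependent prior by an F test with Benjamini-Hochberg adjustment over 19400 probes at 0.05. The script was tested on simulated data. Python 3.11.15, numpy 2.4.6, pandas 2.3.3 and matplotlib 3.10.9 were used.

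The genes and lists were chosen with earlier results of these data known. Every one of the 39 genes is named. Of the pathway and other lists, values are given for receptors and receptor kinases and for the first 3 genes of each other role, and Ifnk, Irf8 and the genes not detected are named by their detection. Some genes of this rule are not reported here. Alternatives were another detection flag, at least 2 arrays, every probe required, flagged spots kept, normexp (offset 50), quantile, median and spike-in scaling, no filter on dim probes, a mean over probes, other priors, a threshold of 0.01 and leaving out each replicate.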

Additional observations from a re-analysis of the deposited data

Results flagged for a closer look

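Of 33 results examined for a replicate far from the others (the level of each of the 32 detected genes and their mean), 1 stood out. Adar lay at -4.69 on replicate 2, against -4.26, -4.23 and -4.17 on replicates 1, 3 and 4. The gap to the nearest value was 0.84 of the whole range, above Dixon's critical value for 4 samples. Chance flags about 1 in 20 such groups, or 1.65 of 33. The gene has 1 probe, and limma's variance test gave Adar an adjusted p of 1.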

How the results depend on the processing

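No paired analysis was possible because all samples are of the same condition. The count of interferon-stimulated genes detected on all 4 arrays, 32 of 38, was 37 with the positive and significant flag (Ifit1 being the exception), 33 with at least 2 arrays and 28 with every probe required, while the share of named genes was 65.9%, 59.8% and 48.0%. Leaving out each replicate gave 32 to 33. Under these settings the pathway count, 25, lay between 19 and 26, and that of other interferon-stimulated genes, 16, between 16 and 20. No gene passed the variance test in the reported fit. With no filter on dim probes 1 did, Mx2. Under the other settings 0 did, and 0 to 0 with each replicate left out. The median SD, 0.13, was 0.52 with spike-in scaling, 0.16 with no filter and 0.10 to 0.14 with each replicate left out. The range of the mean level over arrays, 0.10, was 1.02 with spike-in scaling, 0.22 with no filter and 0.03 to 0.10 with each replicate left out, 0.03 being without replicate 3. The 7 spike-in probes lay at 2.82, 2.84, 3.42 and 3.81 relative to the 75th percentile on replicates 1 to 4. The cause of these differences was not tested. Scaling on the median of detected probes moved all 32 levels by about 1.58, a constant. Normexp moved 19 of 32 by more than their SD, by -0.20 to 1.18 over the 32, with Oasl at -3.45 in place of -4.63. A mean over probes moved 4, Oas1a, Eif2ak2, Irf9 (-1.42 in place of 0.19) and Trim25 (-0.15 in place of 1.51). Quantile normalization and kept flagged spots moved no level by more than its SD. Spike-in scaling could not move a gene's mean level, since its shifts of the 4 arrays cancel in that mean. The genes not detected are limited by signal near background.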
